A study of Mus musculus with 8 samples.

Results

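The mRNAs of 42 proteins of the large ribosomal subunit were examined gene by gene, by poly(A) tail length and by read number. The genes were taken by name (symbols beginning with Rpl, retrocopies named as pseudogenes not included) from a table that lists every sequenced read with its transcript and its estimated tail. All 42 genes had reads. They held 298476 of the 1926010 reads on nuclear mRNAs that passed the tail-quality filter, and the whole table held 13120 genes.

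RNA came from P19 cells, a mouse embryonal carcinoma line that was wild type and undifferentiated, so every library was made from a single cell line. Cells received MHY1485 (MHY), a compound used to activate the kinase mTOR, at 10 µM, or the same amount of its solvent DMSO, for 24 h or 48 h with fresh medium every 24 h. Each of the 4 groups had 2 biological replicates, and the comparison asks whether activating mTOR changes tail length and abundance of these mRNAs. Poly(A) RNA selected on oligo(dT) was sequenced directly on nanopores, where a read is 1 RNA molecule that entered the pore by its tail. Libraries carry the numbers given in the table (21 and 23 at 24 h, 24 and 25 at 48 h, for DMSO and MHY alike). These numbers are names and not hours.

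Each large subunit holds a single copy of nearly every ribosomal protein, and cells make these proteins in matched amounts from unlinked genes. Their mRNAs begin with a cytosine followed by a run of pyrimidines, the 5′ terminal oligopyrimidine (TOP) motif, through which the mTOR pathway and the RNA-binding protein LARP1 control their translation and stability. The poly(A) tail, added when the transcript is cleaved behind a polyadenylation signal, is shortened over the life of an mRNA and binds the poly(A)-binding protein.

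The reads themselves show where these mRNAs begin and end. Nanopore reads run from the tail and stop a few nt short of the cap, so the 30 nt before the most frequent first aligned base were searched on the transcript strand for a C followed by 4 or more pyrimidines. All 38 members for which this window could be read held such a tract, against 669 of 1564 other genes with at least 100 reads (42.8%). A tract of 8 nt or more was present in 33 of the 38 members (86.8%) and in 201 of the 1564 other genes (12.9%). The members' tracts were 13 nt long at the median (6 to 20 nt), and began 17 nt (median, 11 to 25 nt) before the first aligned base. In Rpl5, Rpl7, Rpl10, Rpl26, Rpl27 and Rpl27a the tract ran to the edge of the window, so its length there is a lower bound. Windows of 7 members to which the results below turn are printed from RefSeq promoters or GENCODE vM21 transcripts (assembly mm10), from 5′ to 3′, with the tract in capitals.
Rpl4 (chr9:64173356-64173385, plus strand): tacaagtgacaagtCTTTCCTTTTCCTgtg
Rpl7 (chr1:16104392-16104421, minus strand): gtgcgcatgcgccaCCTTTCTCTCTTCTTT
Rpl7a (chr2:26910787-26910816, plus strand): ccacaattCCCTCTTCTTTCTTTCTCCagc
Rpl9 (chr5:65391383-65391412, minus strand): acgaaagacgttCTCTCTTTgccccatcta
Rpl23 (chr11:97782371-97782400, minus strand): tcccctgtactaaCTTCCTTTCTgaccctt
Rpl24 (chr16:55966380-55966409, plus strand): tgattCTTTCTTTCTCTTCgccatctttac
Rpl35 (chr2:39005115-39005144, minus strand): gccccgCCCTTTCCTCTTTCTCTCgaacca
The tract was 8 nt long in Rpl9, the member with the longest tails, and 19 nt in Rpl7a, a member with short tails. A match to these letters is a description of the window and not a measured binding site.

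The 3′ ends were as sharply set. In 38 of 42 members at least 80% of the reads on the principal transcript ended within 15 nt of the most frequent end, the site to which the tail is joined. The signal AATAAA stood in the last 40 nt in 33 members (78.6%), the variant ATTAAA in 7 of those without it, and neither in Rpl7a and Rpl23a. Read ends of 2116 other genes held AATAAA in 72.8%. The last 30 nt before the tail are shown for the same 7 members (mm10), with the signal in capitals.
Rpl4 (chr9:64178490-64178519, plus strand): atttcAATAAAtcaaacatgtggtgacaaa
Rpl7 (chr1:16101295-16101324, minus strand): AATAAAcagtcacagcttggcaaattgaaa
Rpl7a (chr2:26913283-26913312, plus strand): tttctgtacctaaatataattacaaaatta
Rpl9 (chr5:65388371-65388400, minus strand): tgggctcttttgggagAATAAAagacttat
Rpl23 (chr11:97778035-97778064, minus strand): aaaatatattcATTAAAgtctctgctctga
Rpl24 (chr16:55971406-55971435, plus strand): gttggaAATAAAgctctatctttaactcta
Rpl35 (chr2:39001581-39001610, minus strand): caacgacAATAAAgtgcgagactgactggc
In 17 members the main end lay more than 100 nt before the annotated end of the transcript, and in 24 within 30 nt of it. Reads were aligned to annotated transcripts and cannot run past the annotated end. Where the main end lies at that point, its sharpness is in part set by the annotation.

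Between 178359 and 316531 reads per library fell on nuclear mRNAs, and 28795 to 51323 of them on the members. The least read member in any library had 209 reads. Between 84.1% and 87.2% of reads per library passed the tail-quality filter, and 70.4% to 72.6% of those kept had a mapping quality of at least 10. Of 10 markers of pluripotent cells, 9 had reads (Zfp42 had none), and their sum was 39.3 to 43.9 reads per 10000 in each library. Of 6 neuronal markers, 4 had reads and summed to 2.15 to 4.04 per 10000, and the sums of endoderm, mesoderm and fibroblast markers reached 0.0642, 2.31 and 0.328. At 48 h the neuronal sum was 2.81 to 3.14 in DMSO and 2.15 to 2.38 in MHY, without overlap. At 24 h the neuronal sums of the groups overlapped. MHY library 24 stood apart from its replicate by shorter tails in the members and in all other genes. DMSO library 24 differed from its own replicate in the same direction. Its medians were 89.4 against 93.8 nt in the members and 98.1 against 100.4 nt in all other genes. Counts and main values at 48 h are also given without MHY library 24. Each sequencing run held both treatments but a single time point, so that time and run cannot be told apart.

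Tails of the members were shorter than those of the typical mRNA. The median tail of a member, averaged over the 8 libraries, had a median of 92.3 nt over the 42 genes, against 100.4 nt over the 1949 genes with at least 10 reads in each library. Measured against the median gene of the same library, 33 of 42 members were shorter (limma, adjusted p under 0.05) and 1 was longer. Over all genes tested 20.1% were shorter and 20.7% longer, but of 97 other genes read at least as deeply as the least read member 58 were shorter and 24 longer. Of the 32 small-subunit mRNAs 25 were shorter. Without weights by reads, 22 members differed from the median gene in place of 34. Rpl24, a protein that reaches across to the small subunit, stood lowest, at 21.2 nt below the median gene (SE 0.889, n = 8 libraries). Rpl7a, a protein that binds the rRNA of the subunit body, stood 20.7 nt below (SE 0.801) and Rpl32 19.2 nt below (SE 0.620). The shortest class took no larger part than in other genes. Tails under 30 nt made up 2.44% of reads in the median member and 2.93% in the median gene tested.

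**Figure D1:**
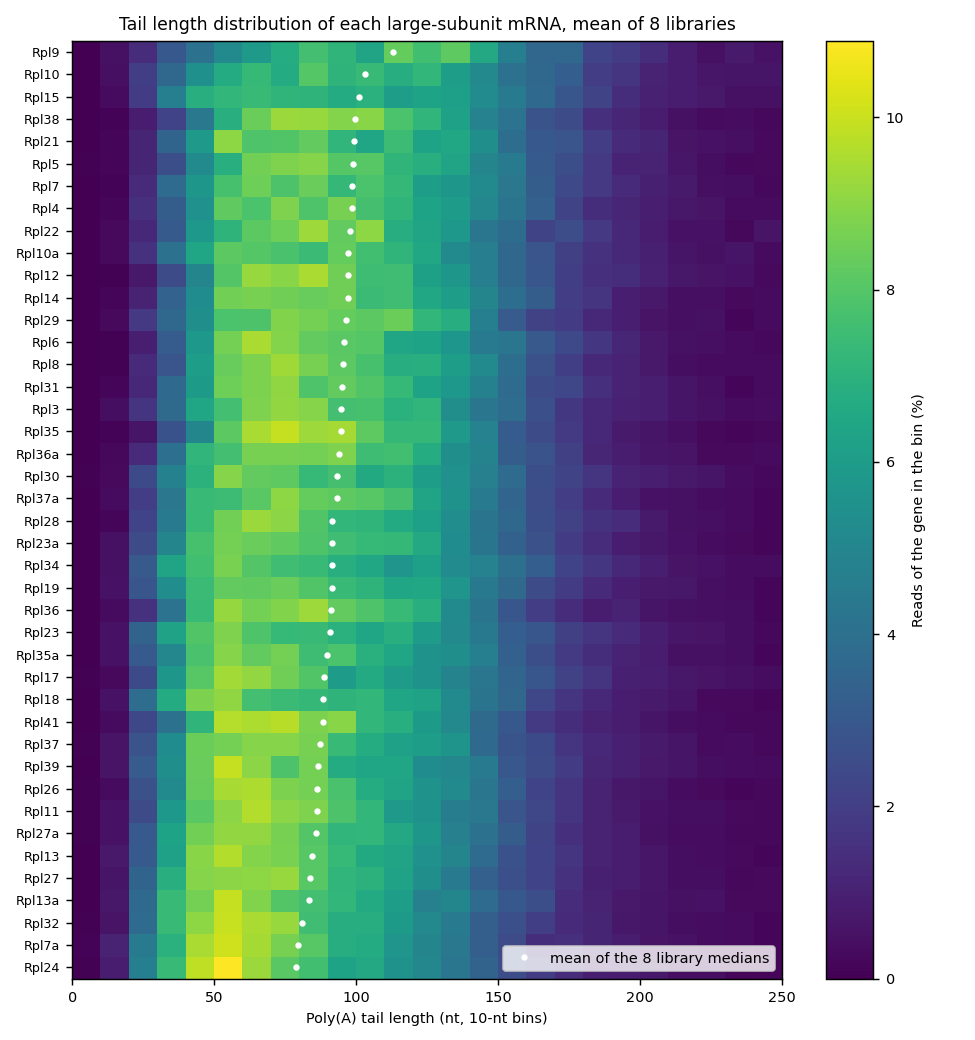
Share of each member's reads (colour, percent, mean of the 8 libraries) in poly(A) tail bins of 10 nt from 0 to 250 nt. Genes are ordered by median tail. The fullest bin began at 50 nt in 15 members and at 70 nt in 12, and Rpl9 was the single gene with its fullest bin at 110 nt.

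Within the subunit, single genes kept their own tail lengths. Of the 861 pairs of members, 495 (57.5%) had the same order of median tail in all 8 libraries, and 451 (52.4%) had the same order of the share under 30 nt. Neighbours in the order did not differ beyond the spread between libraries. Of 41 neighbouring pairs in median tail, only Rpl9 and Rpl10 kept their order in all 8 libraries. The orders in any pair of libraries correlated with Spearman's rho of 0.713 to 0.898 over the 42 genes, which share libraries and are not replicates.

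Rpl24 had median tails of 76.3 and 78.9 nt in the DMSO libraries of 24 h, 79.4 and 83.2 nt in MHY at 24 h, 75.8 and 81.6 nt in DMSO at 48 h, and 75.7 and 79.3 nt in MHY at 48 h (mean 78.8 ± 2.75 nt, SD, n = 8). It carried the largest share of tails under 30 nt, 5.65% ± 1.76 (SD, n = 8), with single libraries between 3.50% and 8.56%. Rpl35, which lies at the opening of the exit tunnel, had the smallest share, 0.731% ± 0.335 (SD, n = 8), and its libraries lay between 0.362% and 1.43%. The ranges of these genes did not overlap. Both carry a pyrimidine tract and AATAAA in the windows shown above, with tracts of 14 and 18 nt.

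The other members with the shortest tails were Rpl7a (79.4 ± 4.31 nt, SD, n = 8), Rpl32 (80.8 ± 4.21), Rpl13a (83.4 ± 5.21) and Rpl27 (83.8 ± 4.38). At the long end stood Rpl10 (103.0 ± 5.08 nt), which joins the subunit late and sits near the A site, followed by Rpl15 (100.8 ± 3.46), Rpl38 (99.6 ± 2.72) and Rpl21 (99.0 ± 4.58). Rpl38, known for its part in the translation of Hox mRNAs in the embryo, had a share under 30 nt of 0.997% ± 0.268 (SD, n = 8).

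**Figure D2:**
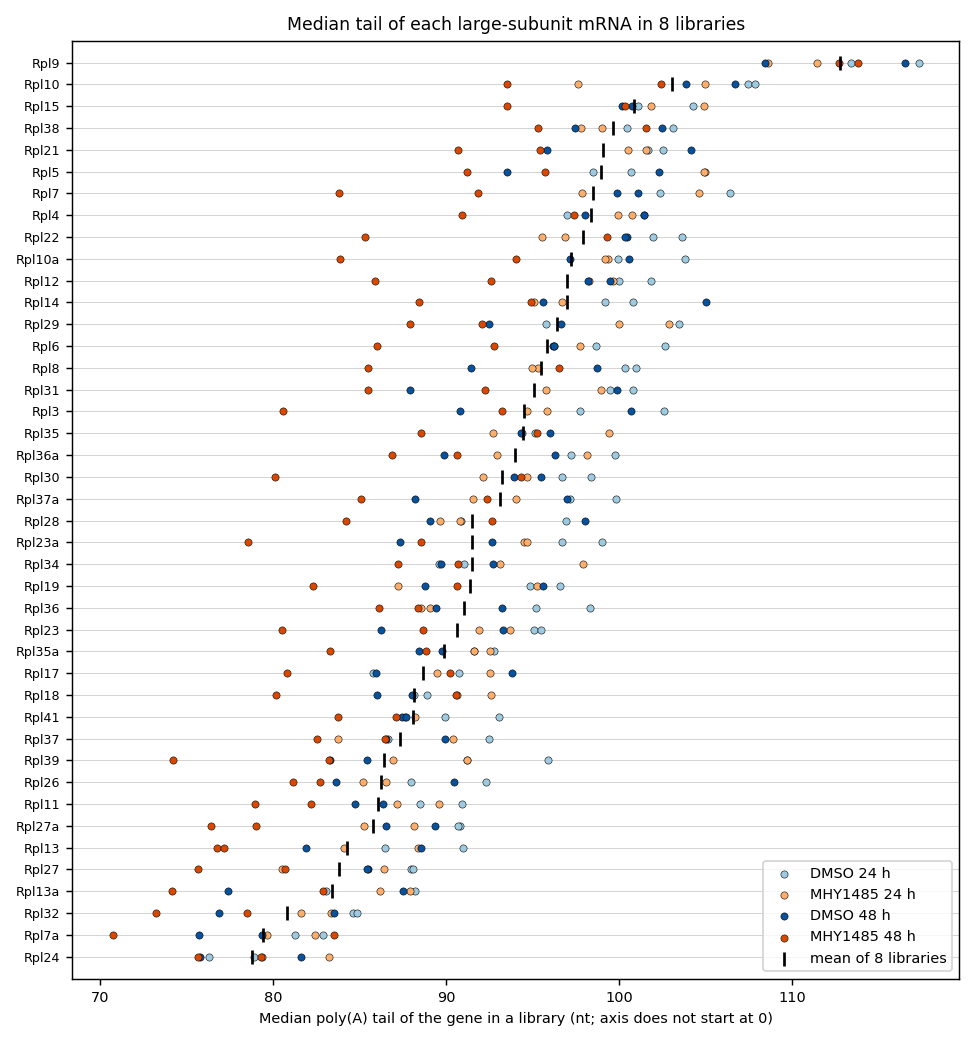
Median poly(A) tail (nt, axis not starting at 0) of each member in each of the 8 libraries (points, coloured by group) with the mean of the 8 (black line), ordered by that mean. Rpl9 lay above every other gene within each library, and most genes had their lowest point in MHY at 48 h.

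Rpl9, a protein near the sarcin-ricin loop of the rRNA, had longer tails than the other 41 members in every library. Its medians were 113.4 and 117.3 nt in DMSO at 24 h, 108.6 and 111.4 nt in MHY at 24 h, 108.4 and 116.5 nt in DMSO at 48 h, and 112.7 and 113.8 nt in MHY at 48 h. It stood 12.97 nt above the median gene (SE 1.40, limma). Of Rpl9 reads, 12.4% had a mapping quality of at least 10, and with these reads alone Rpl9 stood 14.3 nt above the median gene (SE 3.94, limma). Under the same setting Rpl12 stood higher, 19.97 nt above the median gene (SE 4.20), so that the first place of Rpl9 did not hold there. The 4414 reads placed on its retrocopy Rpl9-ps6 had a median tail of 81.8 ± 4.04 nt (SD, n = 8), and both sets of reads together one of 91.9 ± 3.54 nt, near the median member. Rpl10 and Rpl10-ps3 behaved alike to a lesser degree, with 103.0 ± 5.08 nt for Rpl10, 91.3 ± 5.64 nt for Rpl10-ps3 and 97.8 ± 4.44 nt together. With reads of a mapping quality of at least 10 alone, Rpl10 differed from the median gene by -2.43 nt (SE 4.08, limma). Its place at the long end thus did not hold on these reads. At the short end of the order, 75.8% of Rpl24 reads, 93.9% of Rpl7a reads and 58.2% of Rpl13a reads had a mapping quality of at least 10. Reads of Rpl17 (0.295%), Rpl18 (1.09%), Rpl22 (1.10%), Rpl5 (3.76%) and Rpl12 (5.05%) seldom reached that quality. Reads of Rpl17, Rpl18 and Rpl22 were spread over several transcripts of the gene, with 50.03%, 48.1% and 33.1% on the most used one, which leaves a sum over the gene unchanged. The source of the low mapping quality was not tested.

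In the read number, the members ran from 12.9 to 67.0 reads per 10000, while the ribosome holds nearly all of their proteins in equal numbers. A read is 1 molecule, so that reads per 10000 nuclear mRNA reads of the library were compared without division by length. Rpl32 was the most read gene (67.0 ± 3.09 reads per 10000, SD, n = 8), followed by Rpl23a (66.4 ± 1.80), Rpl41 (64.6 ± 4.42), Rpl23 (59.9 ± 2.51) and Rpl19 (56.7 ± 1.72). Rpl23a docks factors that receive the nascent chain, and Rpl41 is the smallest protein of the subunit. The least read were Rpl9 (12.9 ± 1.96), Rpl22 (13.9 ± 1.72), Rpl10 (19.6 ± 2.16), Rpl39 (22.3 ± 3.05) and Rpl21 (22.4 ± 2.18). Rpl9 and Rpl9-ps6 together held between 33.5 and 38.8 reads per 10000, which is near the median member (35.0). The order by reads was firmer than the order by tail, with 698 of 861 pairs (81.1%) the same in all 8 libraries. Again, 1 of 41 neighbouring pairs kept its order throughout.

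**Figure D3:**
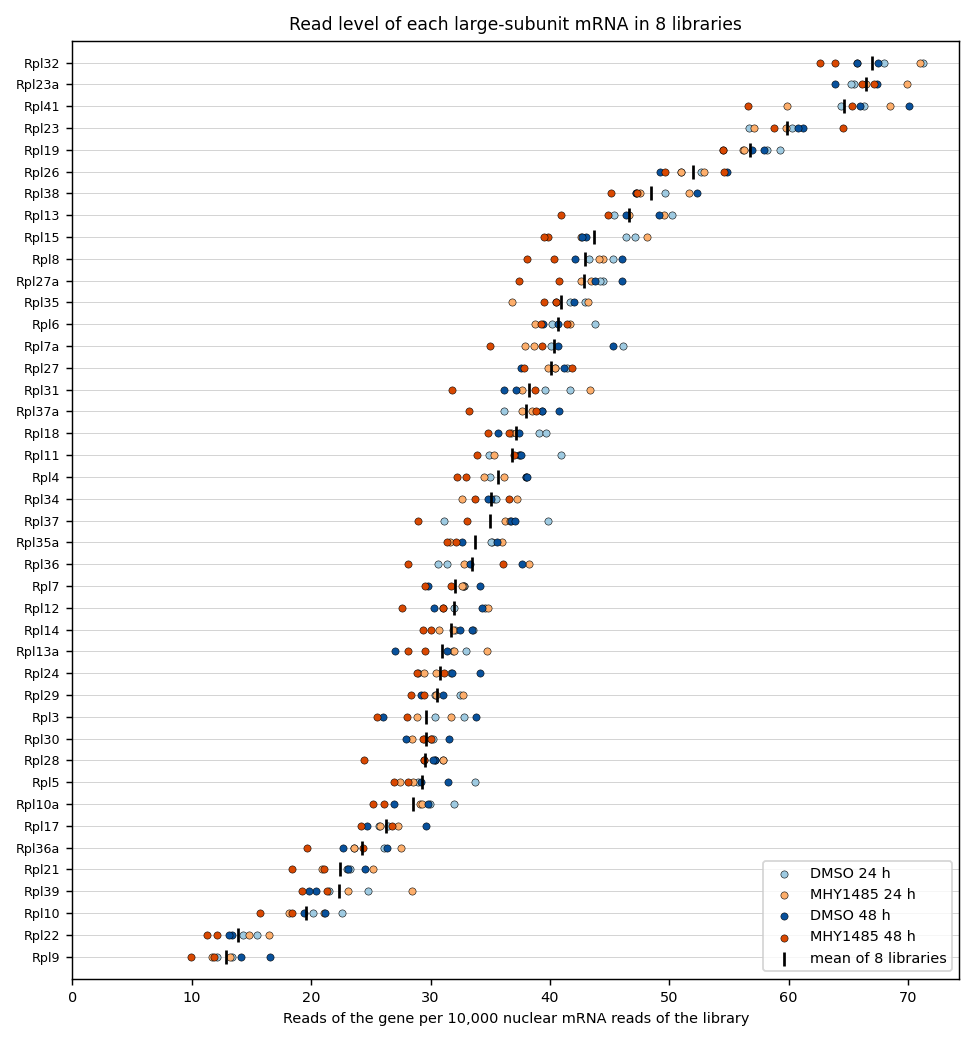
Reads of each member per 10000 nuclear mRNA reads in each of the 8 libraries (points, coloured by group) with the mean (black line), ordered by that mean. Levels ran from 12.9 (Rpl9) to 67.0 (Rpl32), and the points of MHY at 48 h lay mostly at the left of a gene's points.

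Over the 42 genes, median tail and the logarithm of read number were related by Pearson's r of -0.48 (Spearman's rho -0.37), the more abundant mRNAs having the shorter tails. Median tail was related to coding length by r = 0.24 (rho 0.29) and to the share of well placed reads by r = -0.45 (rho -0.38). These are descriptions over genes that share libraries and read assignment, and the part of read assignment in the first relation was not tested.

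The position at which alignments ended within a gene went with a difference of tail in some members. Of 6 members with a second end that took at least 5% of the reads on the principal transcript, Rpl37a had tails 16.3 nt longer (± 2.58, SD, n = 8) on the end 54 nt downstream. On the main end its medians lay between 84.5 and 97.4 nt and on the downstream end between 103.1 and 114.0 nt, with no overlap (two-sided exact sign-flip permutation test over 8 libraries, p = 0.00781, the smallest it can give, 0.0156 after Benjamini-Hochberg adjustment over the 6 genes). Reads on the downstream end numbered 448 against 6378. Rpl41 had tails 8.72 nt longer (± 4.09) on an end 36 nt upstream, again in 8 of 8 libraries and at the same p. This end (position 546 of the transcript) lies before the AATAAA, which starts at 549. In Rpl7 the second end (1124) likewise lies before the AATAAA (1134). Whether alignment ends at such positions are sites of cleavage was not tested. Rpl36a had tails 8.91 nt shorter (± 7.83) on an end 58 nt upstream in 8 of 8 libraries, also at that p. About as many Rpl36a reads used either end (1191 and 1076), while 49.9% of all its reads fell on transcripts not annotated as coding. Rpl7, Rpl13a and Rpl23a gave differences of -0.79, 2.17 and -1.62 nt, with adjusted p of 0.820, 0.638 and 0.223 in the exact permutation test.

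The members were next compared with other parts of the translation machinery within each library. The values are taken over the pooled reads of a list. The most read genes of a list weigh most, and a value over its genes can differ. Over all reads of a list, the median tail was 91.4 nt in the members and 91.1 nt in the 32 small-subunit mRNAs (difference 0.319 ± 0.674 nt, SD, n = 8, exact permutation p = 0.211). Tails under 30 nt made up 2.77% of member reads and 2.62% of small-subunit reads, higher in 7 of 8 libraries (exact permutation p = 0.0234). The 3 acidic stalk proteins Rplp0, Rplp1 and Rplp2, which recruit the translational GTPases, had a share under 30 nt of 1.24%, lower than the members in 8 of 8 libraries (exact permutation p = 0.00781, the smallest possible). Their median tail was 89.8 nt, and that of the members was longer by 1.64 ± 0.868 nt (SD, n = 8) in 8 of 8 libraries (exact permutation p = 0.00781). The 12 mRNAs listed as translation factors (elongation factors such as Eef1a1 and Eef2, initiation factors such as Eif4b, the poly(A)-binding protein Pabpc1, and Tpt1 and Npm1) had a median tail of 96.1 nt, longer than that of the members in 8 of 8 libraries (members minus factors -4.67 ± 1.29 nt, SD, n = 8, exact permutation p = 0.00781). In the mitochondrial large subunit the median was 91.9 nt (-0.478 ± 2.68 nt, SD, n = 8, exact permutation p = 0.633), and its share under 30 nt of 4.71% was above that of the members in 8 of 8 libraries (exact permutation p = 0.00781).

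At 24 h of MHY the changes were small. Over all member reads, the share under 30 nt was 2.28% and 2.37% in DMSO and 2.24% and 2.11% in MHY. The median tail was 94.4 and 95.4 nt in DMSO and 92.8 nt in both MHY libraries, and the share of tails between 30 and 90 nt was 44.2% and 43.3% in DMSO and 45.5% and 45.7% in MHY. The groups did not overlap in these 3 measures, but 2 against 2 libraries cannot give an exact permutation p below 0.333, which each of them reached. By sequencing run, the difference in the share under 30 nt was -0.180 and -0.341 percentage points in runs 1 and 2 and 0.164 in run 3, so that its sign turned in 1 of 3 runs. The exact permutation p only ranks the observed difference among the ways of dividing these libraries into 2 groups. It does not measure the spread between them.

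No single member passed the adjusted threshold at 24 h in any measure (limma, adjusted p under 0.05), as no gene did in the tail measures (0%) and 2 of 4115 did in reads (0.0486%). At an unadjusted p under 0.05 there were 4 members for the share under 30 nt (5.64% of all genes tested), 11 for the share between 30 and 90 nt (4.87%), 3 for the median tail (3.95%) and 1 for reads (4.47%). Median tails of 24 of 42 members were lower in both MHY libraries than in both DMSO libraries (17.9% of all genes). Rpl36, a body protein, had the lowest p in median tail, with 95.2 and 98.3 nt in DMSO against 89.1 and 88.5 nt in MHY (difference -8.21 nt, SE 2.66, adjusted p = 0.949 in limma). Rpl12, at the base of the stalk, had 0.49% and 0.31% of tails under 30 nt in DMSO against 1.00% and 1.29% in MHY (log2 odds 1.47, SE 0.309, adjusted p = 0.669 in limma). Only 5.05% of its reads reached a mapping quality of 10.

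At 48 h the tail values of the set lay lower in MHY, in a design too small to pass a test over the pooled reads. Over all member reads the share under 30 nt was 2.87% and 2.23% in DMSO and 4.57% and 3.49% in MHY, a difference of 1.48 percentage points without overlap (exact permutation p = 0.333, the smallest possible). Without MHY library 24 the difference was 0.938 and without DMSO library 25 it was 1.16 percentage points. The median tail was 89.4 and 93.8 nt in DMSO and 83.0 and 89.5 nt in MHY, a difference of -5.36 nt in which the groups overlapped (exact permutation p = 0.667), and of -2.11 nt without MHY library 24. The same measures in all other genes were 2.75% ± 0.166 in DMSO against 3.90% ± 0.770 in MHY, and 99.2 ± 1.62 nt against 96.9 ± 4.09 nt (SD, n = 2). The part of sequencing and tail estimation in MHY library 24 was not tested.

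**Figure D4:**
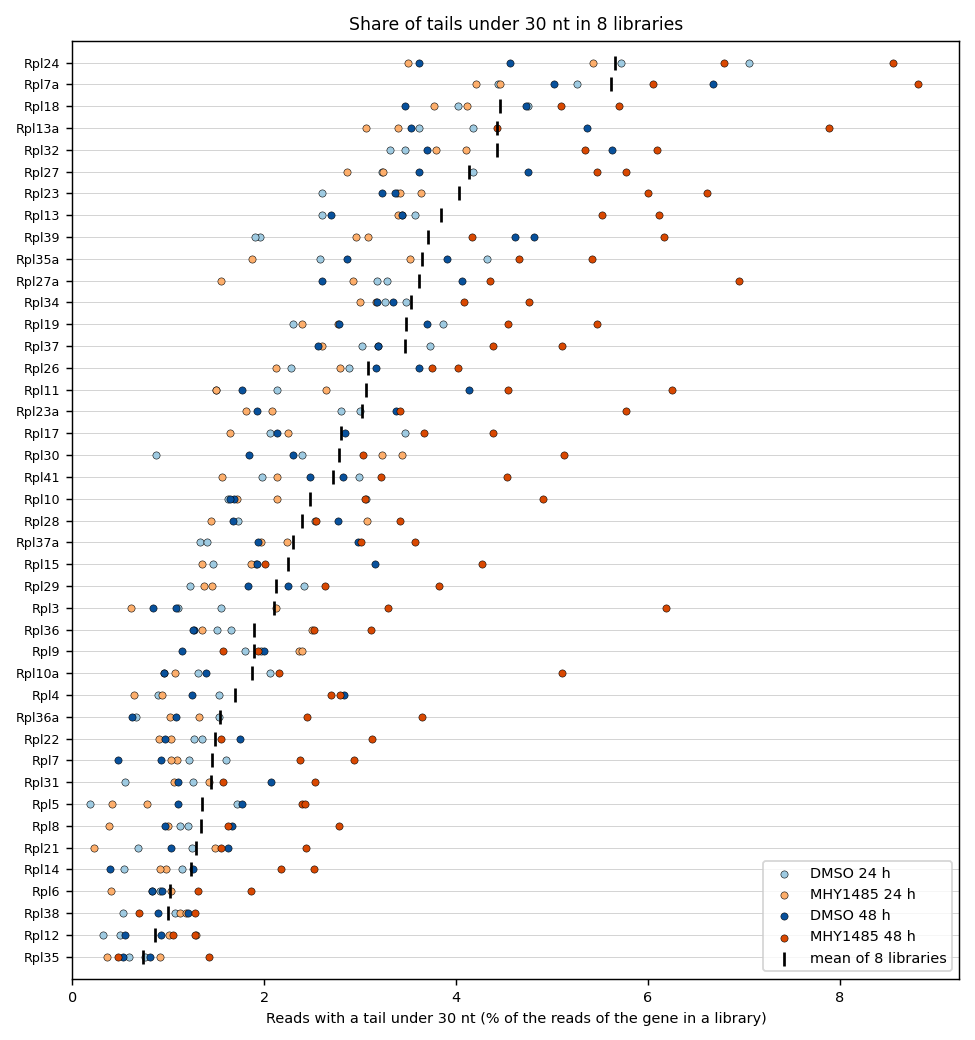
Share of tails under 30 nt (percent of the gene's reads) in each of the 8 libraries (points, coloured by group) for each member. In 28 of 42 genes the lower MHY value of 48 h exceeded the higher DMSO value of 48 h.

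Gene by gene, 41 of 42 members had a higher share under 30 nt in MHY at 48 h (66.5% of all genes tested), with a median change of 0.76 in log2 odds against 0.41 over all genes. Among 97 other genes read as deeply, 85 were higher, with a median of 0.75 and 5 called. Without MHY library 24 the members' median was 0.48, and 38 were higher. In 28 members the lower MHY value exceeded the higher DMSO value (26.1% of all genes). The increase passed the test in Rpl23 and Rpl7 (limma, adjusted p under 0.05), of 7 genes called among 1949 (0.359%). Both calls were lost in a fit without read weights (adjusted p of 0.863 and 0.672 in limma) and in one on the 4 libraries of 48 h alone (0.0996 and 0.147). At an unadjusted p under 0.05 there were 26 members (10.6% of all genes). Rpl38 was the exception in direction, with 0.89% and 1.21% in DMSO and 1.28% and 0.69% in MHY.

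Rpl23, which lies at the interface with the small subunit, had 3.36% and 3.22% of tails under 30 nt in DMSO at 48 h (Wilson 95% intervals 2.52 to 4.49% and 2.52 to 4.11%). In MHY at 48 h it had 6.61% and 6.01% (5.56 to 7.84% and 4.87 to 7.38%). These groups lay apart by more than their counting error, which is all that the intervals cover. The change was 0.99 in log2 odds (SE 0.137, adjusted p = 0.0291 in limma). At 24 h the shares were 2.60% and 3.39% in DMSO and 3.42% and 3.63% in MHY. No member was called for the share under 30 nt when any of the 4 libraries of 48 h was left out.

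Rpl7, a protein of the body of the subunit, was called in all 3 tail measures at 48 h. Its share under 30 nt was 0.471% (3 of 637 reads) and 0.925% (10 of 1081) in DMSO, and 2.93% (29 of 989) and 2.37% (15 of 633) in MHY, a change of 1.84 in log2 odds (SE 0.266, adjusted p = 0.0315 in limma). Its median tail was 99.9 and 101.1 nt in DMSO and 83.8 and 91.8 nt in MHY, a change of -13.7 nt (SE 2.66, adjusted p = 0.00748 in limma). Its share between 30 and 90 nt was 43.6% and 40.3% in DMSO and 52.3% and 46.9% in MHY, a change of 0.50 in log2 odds (SE 0.114, adjusted p = 0.0378 in limma, where 0.257% of all genes were called). This call was lost without read weights (adjusted p = 0.998 in limma) and with the libraries of 48 h alone (0.169). Rpl7 was the single member called in this class, and 16 members had an unadjusted p under 0.05 (6.16% of all genes). In each measure the groups were separate. At 24 h Rpl7 showed 1.60% and 1.22% of short tails in DMSO and 1.09% and 1.03% in MHY. Well placed reads made up 97.6% of its reads. Call and size depended on single libraries, and without MHY library 24 the median tail change was -8.82 nt (adjusted p = 0.859 in limma) and the short-tail change 1.66 (adjusted p = 0.421 in limma).

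The median tail at 48 h was lower in MHY in all 42 members (38.2% of all genes tested were higher), with a median change of -6.07 nt against -3.01 nt over all genes. Without MHY library 24 these values were -2.20 and 0.40 nt, and without DMSO library 25 they were -3.06 and -2.05 nt. It passed the test in Rpl7, Rpl27a, Rpl13, Rpl12, Rpl10a and Rpl3 (limma), of 17 genes called lower (0.872%). All 6 calls were lost in a fit without read weights and in one on the 4 libraries of 48 h alone, as they were without MHY library 24 or without DMSO library 25. At an unadjusted p under 0.05 there were 26 members (8.36% of all genes), and groups did not overlap in 19 (21.8%). Rpl27a, a body protein, went from 86.5 and 89.4 nt in DMSO to 76.4 and 79.0 nt in MHY (-10.7 nt, SE 2.14, adjusted p = 0.00748 in limma). Rpl13 went from 81.9 and 88.6 nt to 76.8 and 77.2 nt (-9.05 nt, SE 2.23, adjusted p = 0.0389 in limma). In both genes the MHY libraries lay close together and below DMSO. Without DMSO library 25 the change of Rpl13 was -4.96 nt.

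Rpl12 and Rpl10a, which lie at the 2 stalks of the subunit, were called. Rpl12, at the base of the acidic stalk, went from 98.2 and 99.5 nt in DMSO to 85.9 and 92.6 nt in MHY (-10.2 nt, SE 2.54, adjusted p = 0.0389 in limma). Rpl10a, the protein of the L1 stalk where the empty tRNA leaves, went from 97.2 and 100.6 nt to 83.9 and 94.1 nt (-11.2 nt, SE 2.86, adjusted p = 0.0453 in limma). Both showed separate groups, with MHY library 24 lowest, and without it the changes were -6.39 nt in Rpl12 and -5.22 nt in Rpl10a. Both calls were lost at a barcode confidence of at least 0.9, and that of Rpl12 at a mapping quality of at least 10. In median tail 13 members were called without MHY library 25 or without DMSO library 24.

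Of the 3 members near the peptidyl transferase centre, Rpl3 was called (-11.9 nt, SE 3.08, adjusted p = 0.0477 in limma), with 90.8 and 100.7 nt in DMSO and 80.6 and 93.2 nt in MHY, values that overlapped. Without MHY library 24 the change was -4.08 nt, and the call was lost in 9 of 17 alternatives. Rpl8 (91.5 and 98.7 nt against 85.5 and 96.5 nt) and Rpl10 (106.7 and 103.9 nt against 93.5 and 102.4 nt) were not called, with adjusted p of 0.527 and 0.561. Rpl3 had 1.08% and 0.84% of tails under 30 nt in DMSO and 6.19% and 3.29% in MHY (log2 odds 2.40, SE 0.470, adjusted p = 0.127 in limma), the widest gain of a member and not called.

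None of the 8 members of the exit tunnel was called in any tail measure at 48 h, where at most 0.872% of all genes were. Their median tail changes ran from -4.09 nt (Rpl35) to -7.88 nt (Rpl23a, adjusted p = 0.0518 in limma). Rpl4, which lines the narrow part of the tunnel, had medians of 98.0 and 101.4 nt in DMSO and 90.9 and 97.4 nt in MHY at 48 h (-6.49 nt, SE 2.45, adjusted p = 0.381 in limma). At 24 h Rpl4 had 97.0 and 101.5 nt in DMSO and 99.9 and 100.7 nt in MHY. Its share under 30 nt was 2.84% and 1.24% in DMSO and 2.79% and 2.69% in MHY at 48 h, values that overlapped.

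The other tunnel members ran alike. Rpl19 had medians of 88.8 and 95.6 nt in DMSO and 82.3 and 90.6 nt in MHY at 48 h, and Rpl26 83.6 and 90.4 nt against 81.1 and 82.7 nt. Rpl31 had 87.9 and 99.9 nt against 85.5 and 92.2 nt. The groups of Rpl26 were separate and those of Rpl19 and Rpl31 overlapped. Rpl17 had 86.0 and 93.8 nt against 80.8 and 90.2 nt, and Rpl39, a small protein within the tunnel wall, 83.3 and 85.4 nt against 74.2 and 83.2 nt, groups that just failed to touch.

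Rpl5 and Rpl11, which form a particle with 5S rRNA and also bind the p53 regulator Mdm2, were not called. Rpl11 had medians of 84.7 and 86.3 nt in DMSO and 78.9 and 82.2 nt in MHY at 48 h (-5.36 nt, SE 2.29, adjusted p = 0.522 in limma). Rpl5 had 93.5 and 102.3 nt against 91.2 and 95.7 nt (adjusted p = 0.561 in limma). The groups were separate in Rpl11 and overlapped in Rpl5. At 24 h Rpl5 was higher in both MHY libraries (104.9 and 104.9 nt) than in DMSO (98.5 and 100.7 nt), and its adjusted p was 0.995.

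Of the bridge proteins, Rpl24 and Rpl41 had small changes in median tail at 48 h (-2.26 nt, SE 2.55, and -2.35 nt, SE 1.75), with adjusted p of 0.913 and 0.827 in limma. Rpl24 nevertheless had 4.57% and 3.61% of tails under 30 nt in DMSO and 8.56% and 6.80% in MHY (log2 odds 1.04, SE 0.235, adjusted p = 0.127 in limma), without overlap. Its share between 30 and 90 nt was 57.3% and 53.1% in DMSO and 52.3% and 51.5% in MHY, so that Rpl24 was the single member lower in both MHY libraries in that class.

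Read numbers lay lower in MHY at 48 h. The members made up 15.3% and 16.2% of reads in DMSO and 14.3% and 15.1% in MHY, a difference of -1.07 percentage points without overlap (exact permutation p = 0.333, the smallest possible). Leaving out 1 library, a choice made after seeing the data, gave -0.63 percentage points without MHY library 24 and -0.62 without DMSO library 25. At 24 h the shares were 15.8% and 16.02% in DMSO and 15.3% and 16.1% in MHY and overlapped. In cells harvested in bulk, less mRNA per cell and fewer cells that make it cannot be told apart.

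All 42 members had a negative fold change in reads at 48 h (limma voom, median-of-ratios scaling), with a median of -0.24 on the log2 scale against -0.02 over the 4115 genes tested. The members had a median of -0.14 without MHY library 24, with 37 of 42 lower. With scaling by library totals 37 of 42 were lower, with a median of -0.13 against 0.10 over all genes, so that the distance to the median gene was alike while the direction turned in 5 members. Groups did not overlap in 30 members, with MHY lower (21.3% of all genes). The decrease passed the test in Rpl9, Rpl37, Rpl7a and Rpl21 (54 of 4115 genes called lower, 1.31%, and 1.73% called in either direction). At an unadjusted p under 0.05 there were 28 members (12.3% of all genes).

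Rpl9 had 14.1 and 16.6 reads per 10000 in DMSO and 9.95 and 11.9 in MHY (log2 fold -0.63, SE 0.136, adjusted p = 0.000797 in limma voom). Its retrocopy had 21.1 and 22.2 in DMSO and 24.4 and 21.7 in MHY, values that overlapped. The sum of both was 35.2 and 38.8 in DMSO and 34.3 and 33.5 in MHY. On the log2 scale this sum changed by -0.12 and Rpl9 alone by -0.49 (means of reads per 10000). With only reads of a mapping quality of at least 10, the call of Rpl9 was lost at a log2 fold of -0.75 (adjusted p = 0.108 in limma voom).

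Rpl37, a small zinc-binding protein, had 36.7 and 37.1 reads per 10000 in DMSO and 28.9 and 33.0 in MHY (log2 fold -0.38, SE 0.105, adjusted p = 0.0255 in limma voom). Rpl7a had 40.7 and 45.3 against 35.0 and 39.3 (-0.34, SE 0.101, adjusted p = 0.0428 in limma), and Rpl21 23.1 and 24.5 against 18.4 and 21.1 (-0.40, SE 0.119, adjusted p = 0.0462 in limma). The groups were separate in all 3. Rpl21 reads had a mapping quality of at least 10 in 23.5%. Without MHY library 24 or without DMSO library 25 no member was called in reads, and without MHY library 25 there were 17. Of 17 alternatives, 10 lost the call of Rpl37, 11 that of Rpl7a and 13 that of Rpl21, among them a barcode confidence of at least 0.9, library total scaling and leaving out either DMSO library of 24 h. Their changes without MHY library 24 were -0.23, -0.20 and -0.24.

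With median-of-ratios scaling, the log2 folds nearest to 0 were those of Rpl23a (-0.10, SE 0.0872) and Rpl6 (-0.10, SE 0.100), and the sign of both turned with scaling by library totals (0.014, SE 0.0656, and 0.012, SE 0.0809). Rpl23a had 63.8 and 67.4 reads per 10000 in DMSO and 66.2 and 67.1 in MHY, and Rpl6 had 39.5 and 40.7 against 41.4 and 39.3, values that overlapped in both genes. Rpl4 had 38.0 and 38.1 against 32.2 and 33.0, separate groups with an adjusted p of 0.0588. None of the 4 genes called in reads was called in a tail measure. Rpl7a, for example, had medians of 75.7 and 79.3 nt in DMSO and 70.7 and 83.5 nt in MHY.

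**Figure D5:**
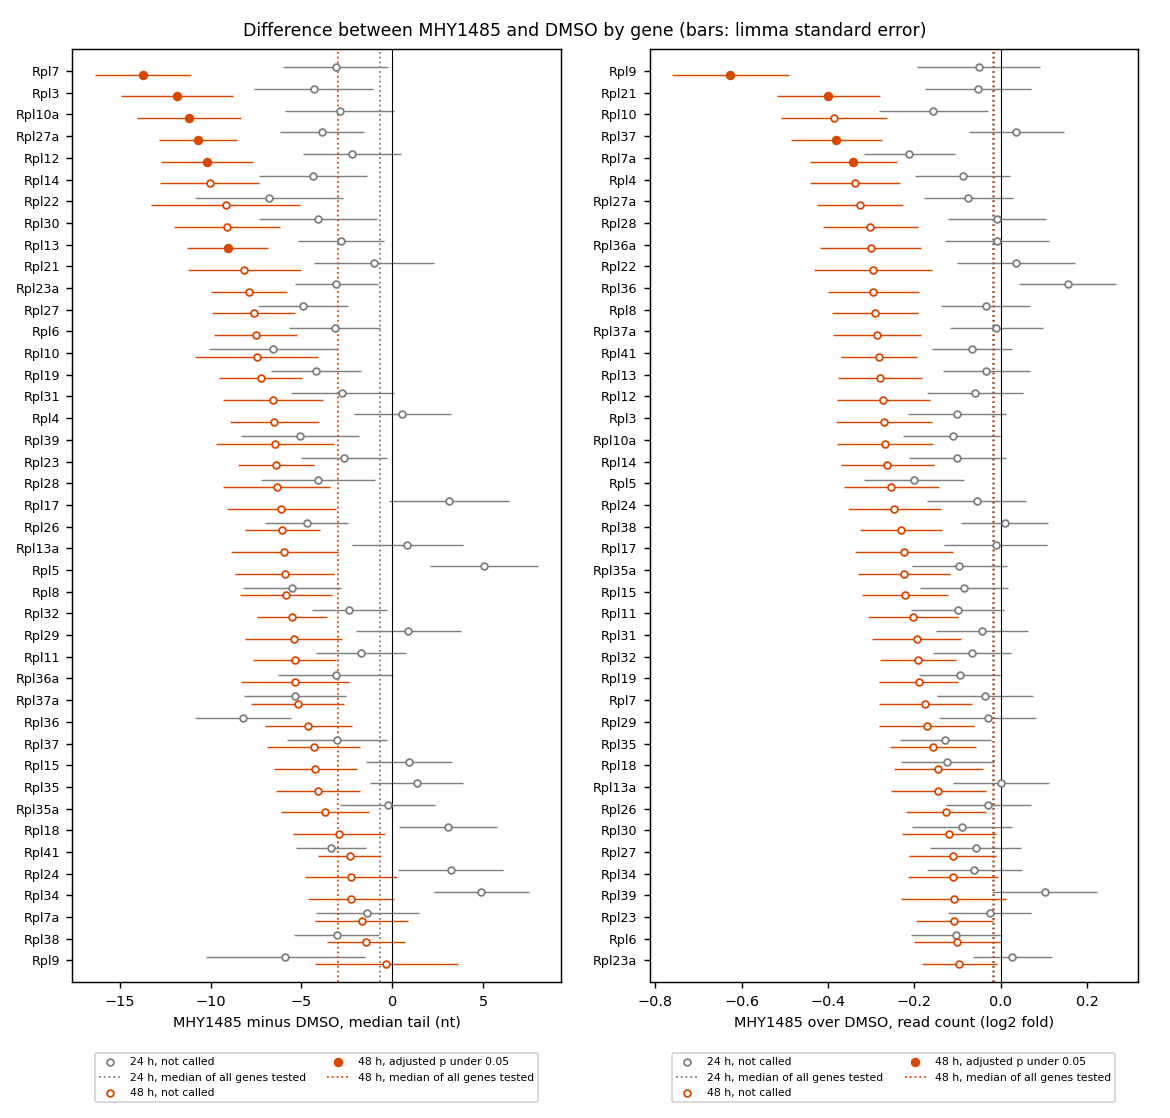
MHY minus DMSO in median tail (nt, left) and log2 fold of read count (right) of each member at 24 h (grey) and 48 h (orange), with limma standard errors as bars and filled points where the adjusted p was under 0.05. Dotted lines mark the median of all genes tested, which lay at -3.01 nt and -0.02 at 48 h. With the median-of-ratios scaling used here every 48 h point lies left of 0, and with library totals 5 of the 42 read folds do not.

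Other deeply read genes gave values of the same sign. Among 97 other genes with at least 209 reads in each library, 29 of them small-subunit mRNAs, 80 had a lower median tail at 48 h (median change -4.50 nt) and 10 were called (10.3%), against 6 of 42 members. In reads, 86 of the 97 were lower (median -0.21 on the log2 scale) and 18 were called in either direction (18.6%), against 4 of 42. The 32 small-subunit mRNAs had median changes of 0.86 in log2 odds of tails under 30 nt (32 higher, 4 called), -6.10 nt in median tail (31 lower, 6 called) and -0.24 in reads (32 lower, 1 called). The pooled change of the members differed from that of the small subunit by -0.338 percentage points under 30 nt (exact permutation p = 0.333, the smallest possible). Mitochondrial large-subunit mRNAs (Mrpl genes), whose proteins serve the separate ribosome of mitochondria, had a median tail change of -2.27 nt (22 of 40 lower) and a read change of -0.02 (26 of 48 lower).

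The effect at 48 h was set against that at 24 h. Over all member reads the change in tails under 30 nt was -0.150 percentage points at 24 h and 1.48 at 48 h, and the difference of 1.63 reached the smallest p that permuting the labels within time points can give (0.0556, exact permutation over 36 arrangements). The change at 24 h was 0.164 in sequencing run 3 alone, so that its negative sign did not hold in each run. No single member had a called difference between time points in any tail measure (limma interaction, adjusted p under 0.05, 0% of all genes), while 22 had an unadjusted p under 0.05 for the share under 30 nt (8.52% of all genes), 4 for the share between 30 and 90 nt (3.54%) and 6 for the median tail (4.41%). In reads no member had a called difference between time points (0.34% of all genes), and 4 had an unadjusted p under 0.05 (6.63%). In Rpl7, Rpl10a, Rpl23a, Rpl24, Rpl27a and Rpl34 the share under 30 nt was lower in MHY without overlap at 24 h and higher without overlap at 48 h (4.41% of all genes).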

How the data were processed

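Direct RNA sequencing of P19 cells gave 8 libraries in 4 groups of 2. The authors called bases with Guppy, assigned barcodes with Deeplexicon, mapped reads with minimap2 (version 2.20) to GENCODE vM17 transcripts and estimated poly(A) tails with Nanopolish. The table they deposited lists 2439710 alignments. In it the authors gave the barcode confidence as a fraction, the mapping quality as a score, and tails and positions in nt. It holds reads and not counts, so counts were made here. The numbers of its libraries give the group and not which labelled replicate a library is.

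Reads tagged PASS on nuclear mRNA transcripts were kept, once per read and contig, and a read on several transcripts of a gene was counted once. Tail measures (log2 odds of a class with a prior of 0.5 reads, or the median) were fitted in limma 3.58.1 (R 4.3.3), weighted by reads, over the 1949 genes with at least 10 reads in each library. Counts were fitted with limma voom and median-of-ratios scaling over the 4115 genes that reached 10 reads in 2 or more libraries. All 8 libraries entered each fit, and p-values were adjusted over all genes by Benjamini-Hochberg. Values over pooled reads were compared by two-sided exact permutation tests in Python 3.11.15 (pandas 2.3.3, numpy 2.4.6, scipy 1.17.1). Figures used matplotlib 3.10.9. Read ends were read on GENCODE vM21 transcripts of the same assembly.

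The fits were tested on simulated data for the comparison at 48 h, in which 2-fold changes in odds were recovered in 1% of changed genes for the share under 30 nt and 24% for the share from 30 to 90 nt (1949 genes), fixed shifts in nt in 16% for the median tail, and 2-fold changes in 28.0% for counts. Members and lists were chosen with earlier results of these data known. Genes named are those of the functional groups, the 5 highest and 5 lowest in tail and in reads, Rpl4, and per comparison the called genes or the 3 with the lowest p. Others were chosen after their values were seen, among them Rpl38 in the direction of its change, Rpl24 in the 30 to 90 nt class, and the genes with a second end.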

Additional observations from a re-analysis of the deposited data

Results flagged for a closer look

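The change of the members' share of tails under 30 nt with MHY was of opposite sign at the 2 time points, without overlap of the groups at either. The difference of MHY from DMSO was -0.150 percentage points at 24 h and 1.48 at 48 h, which are 1.628 apart, with the exact permutation p of 0.0556 as the smallest that the design allows. All other genes had changes of -0.367 and 1.15 percentage points. In Rpl7 the share under 30 nt was lower in MHY at 24 h and higher at 48 h, each time without overlap, and the effects differed by 2.17 in log2 odds (SE 0.392, adjusted p = 0.165 in limma), which did not pass the threshold. Within sequencing runs, which held both treatments, the pooled change was -0.180, -0.341 and 0.164 percentage points in the 3 runs of 24 h and 1.59 and 1.40 in the 2 runs of 48 h, so that the negative sign at 24 h turned in 1 run. Run and time point cannot be told apart in the difference between time points.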

How the results depend on the processing

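Counts of called members at 48 h moved with several settings. The share under 30 nt had 2 called members, 0 with class bounds of 20 and 40 to 80 nt, 5 at a mapping quality of at least 10, 1 at a barcode confidence of at least 0.9, 0 without weights, 0 with the libraries of the time point alone, and 0 to 4 with a library left out. The share from 30 to 90 nt had 1, and 0 under those bounds, that mapping quality, that confidence, no weights or the time point alone, and 0 to 9 with a library left out. The median tail had 6, 5 at that mapping quality, 4 at that confidence, 5 with at least 30 reads in each library, 0 without weights, 0 with the time point alone and 0 to 13 with a library left out. Read count had 4, and 1 at the mapping quality, 1 at the confidence, 2 with all quality tags, 1 with the time point alone, 1 with library total scaling, 25 with no read minimum, 1 with at least 10 reads in each library, and 0 to 17 with a library left out. The difference between time points had 0, and 1 at the mapping quality and 1 at the confidence. Against the median gene, 34 members differed in tail and 22 without weights. The pooled share under 30 nt at 24 h changed by -0.150 percentage points and by 0.164 in sequencing run 3 alone. The cause of these shifts was not tested.

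With the library number as a replicate block, 6 members were called for the share under 30 nt, 2 for the share from 30 to 90 nt, 7 for the median tail (Rpl3 not among them), 11 for read count and 1 for the difference between time points. No label ties the numbers of DMSO and MHY libraries, so the libraries were not treated as paired. Deviations of same-numbered libraries correlated by 0.0003 to 0.139 across genes, with 2 pairs per time point. Such a correlation cannot show a shift common to all genes. At 48 h the pooled median tail of the members was shorter in library 24 than in library 25 in both treatments. It was 89.4 against 93.8 nt in DMSO and 83.0 against 89.5 nt in MHY. At 24 h both MHY libraries had 92.8 nt. Whether the numbers mark pairs was not tested.

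Without DMSO library 25, 36 of 42 members had a lower median tail and 41 fewer reads in MHY at 48 h, and without MHY library 24 the counts were 37 and 37. The share under 30 nt rested on few reads per gene, which limits its precision.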
